A study of Homo sapiens with 8 samples.

Results

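Genes for acid hydrolases, lysosomal membrane proteins and subunits of the vacuolar proton pump (V-ATPase) were examined in C4-2, an established line of human castration-resistant prostate cancer. The set held 46 genes chosen by function, with earlier results of these data known. They were matched by Ensembl identifier to the 58884 genes of the deposited table. All 46 were found, and each had a mean of at least 10 normalized counts over the libraries. The cells grew in RPMI medium with 10% fetal bovine serum and received either DTHIB (also called E12), labelled a direct inhibitor of the transcription factor HSF1, at 1 µM for 48 h, or its solvent DMSO for the same time. Each of the 2 groups had 4 poly(A)-selected libraries from this 1 line, and the comparison asked how lysosomal gene expression differed under the compound. Since nothing in the labels ties replicates to separate cultures, every p-value below reflects the spread among these libraries alone, which may be technical.

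Lysosomes break down proteins, lipids, glycans and nucleic acids with enzymes that work at low pH. The V-ATPase supplies the acid: its cytosolic V1 sector hydrolyses ATP and drives proton flow through the membrane-embedded V0 sector. Most soluble enzymes reach the lysosome with a mannose 6-phosphate tag, and many lysosomal genes carry a short promoter element, the CLEAR motif, that is bound by TFEB and its relatives TFE3 and MITF.

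Promoter stretches that hold this motif are shown first, because members that share it moved in opposite directions. The letters searched were CACGTG, its extension TCACGTGA, and the full CLEAR palindrome with a further G before and C after; each reads the same on both strands, and the shorter ones lie inside the longer. RefSeq promoter windows on GRCh38.p14, from 250 bases before to 50 after a gene's start, matched 32 of the 46 members. ARSA, ASAH1, ATP6V0E1, ATP6V1A, ATP6V1B2, ATP6V1C1, ATP6V1H, CTSB, HEXA, LAMP2, MANBA, NAGLU, PSAP and SGSH had no entry. The full palindrome was found in 3 of the 32 windows (9.38%), against 0.381% of all 27305 windows and 0.781% of those of tested genes. TCACGTGA was in 7 of the 32 (21.9%), against 1.04% of all windows and 1.89% of those of tested genes. CACGTG was in 10 of the 32 (31.2%), against 7.43% and 10.2%. The motif was not particular to the members. In 80 windows of genes from the further lists below, the palindrome was in 3.75%, TCACGTGA in 8.75% and CACGTG in 17.5%. Each sequence below runs 5′ to 3′ on the gene's own strand, with the motif in capitals and the position of its first base counted from the start in the RefSeq table. That start can differ from the GENCODE gene coordinates given for members below.
GAA (chr17:80101493-80101522, plus strand, motif from -78): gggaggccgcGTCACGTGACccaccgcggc
ATP6V1G1 (chr9:114587699-114587728, plus strand, motif from -60): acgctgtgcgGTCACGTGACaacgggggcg
MCOLN1 (chr19:7522598-7522627, plus strand, motif from -16): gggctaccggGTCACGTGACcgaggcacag
LAMP1 (chr13:113297199-113297228, plus strand, motif from -29): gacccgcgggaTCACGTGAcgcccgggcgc
CTSA (chr20:45891298-45891327, plus strand, motif from -26): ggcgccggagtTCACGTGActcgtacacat
ATP6V0D1 (chr16:67481199-67481228, minus strand, motif from -60): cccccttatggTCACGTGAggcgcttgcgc
CLN3 (chr16:28492058-28492087, minus strand, motif from -2): cgcgggtgctgTCACGTGAtccgacaaacg
Of the 7 members with TCACGTGA, 4 rose in DTHIB (GAA, ATP6V1G1, LAMP1 and CTSA), 2 fell (MCOLN1 and ATP6V0D1) and CLN3 did not pass the test. The call of CTSA was lost in several alternative fits, given with the proteases. Their median log2 fold change was 0.15, against 0.00 for the 25 members whose window lacked it, of which 10 rose and 10 fell. A heat shock element (GAA, TTC and GAA, each separated by 2 bases of any kind), searched on both strands, was in none of the 32 windows, in 0.487% of all windows and in 0.343% of those of tested genes. A match or its absence describes these letters in this window and says nothing of binding.

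Over the whole set, 22 members rose in DTHIB, 16 fell and 8 did not pass the test. That is 82.6% called, beside 64.6% of all 17194 genes tested (31.0% higher and 33.7% lower), by limma with a Benjamini-Hochberg adjusted p under 0.05. The share over all genes was larger with a minimum mean of 50, where 4258 of 13217 genes were higher and 5225 lower. Of the 45 members at that level, 22 were higher and 16 lower. By role, the called share was 94.4% among hydrolases other than proteases, 87.5% among proteases, 60% among membrane proteins and 73.3% among V-ATPase members. The median log2 fold change of the members was 0.09, and that of all tested genes -0.01. In 34 members the DMSO and DTHIB values did not overlap, where 57.9% of all tested genes showed no overlap. Most changes were small: 4 members passed the test with a change of at least 1.5-fold (IDUA, SGSH and ARSA upward, GLA downward), where 20.3% of all tested genes did, and 2 (IDUA and GLA) with at least 2-fold, where 7.96% did. Because the libraries are bulk RNA, a change in the make-up of the cell population and a change in RNA per cell cannot be told apart.

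**Figure D1:**
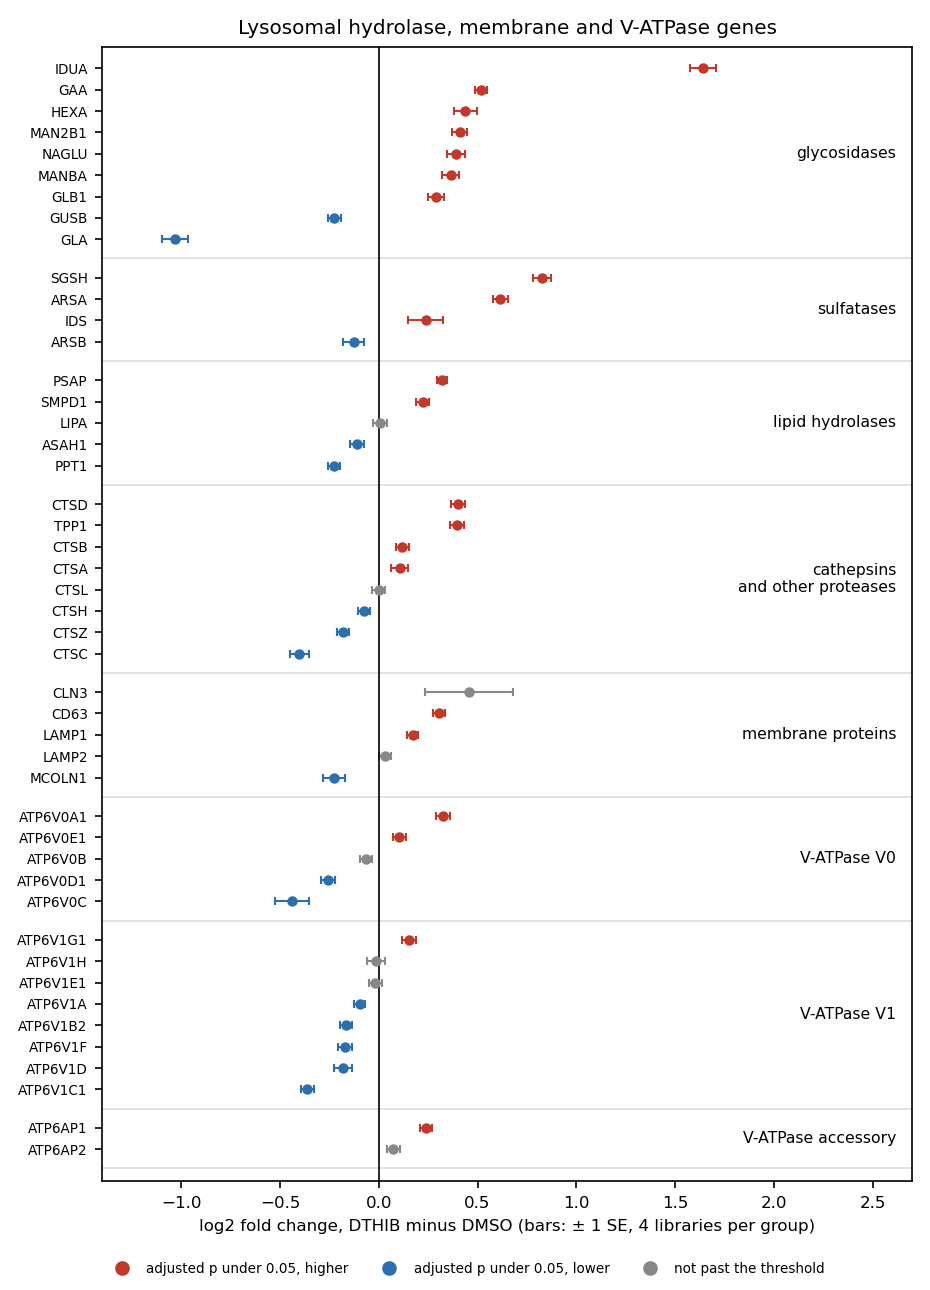
Log2 fold change of each of the 46 members, DTHIB minus DMSO (x axis), grouped by role; points are limma estimates, bars ± 1 SE, and colour gives the call at an adjusted p under 0.05. IDUA at 1.64 and GLA at -1.03 lie farthest from 0, and the V-ATPase subunits lie between -0.44 and 0.32.

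The group of 18 hydrolases other than proteases includes PSAP, which is not itself an enzyme. Of these 18, 12 rose and 5 fell, with a median log2 fold change of 0.31. IDUA, which removes terminal iduronic acid from heparan and dermatan sulfate, stood at 299.8, 267, 276 and 338 normalized counts in the DMSO libraries and at 889.8, 982, 892 and 915 in the DTHIB libraries. Every DTHIB library was far above every DMSO library. The mean went from 295 ± 31.6 to 919.5 ± 43.0 (SD, n = 4 libraries per group here and below), a log2 fold change of 1.64 (limma: SE 0.068, adjusted p = 1.4e-12). The gene lies on chromosome 4 (986997 to 1004506, plus strand, GRCh38), and exons of SLC26A1 on the opposite strand cover 13.3% of its exon length. Whether the counting used strand is not stated, and SLC26A1 itself averaged 798 ± 48.6 in DMSO and 825 ± 51.0 in DTHIB (limma, adjusted p = 0.458).

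SGSH, which cuts the N-linked sulfate of heparan sulfate, held 1196, 1098, 1128 and 1132 normalized counts under DMSO and 1911, 2205, 1949 and 2025 under DTHIB. The groups were well apart, and the log2 fold change was 0.83 (limma: SE 0.045, adjusted p = 5.4e-11). Exons of SLC26A11 and CARD14 on the opposite strand cover 2.40% of those of SGSH (chromosome 17, 80206716 to 80220923, minus strand). SLC26A11 rose too, from 625 ± 28.3 to 898 ± 54.0; its part in the SGSH count was not tested. Other heparan sulfate enzymes moved less. NAGLU, an N-acetylglucosaminidase, rose from 1179 ± 78.5 to 1542 ± 47.9, a log2 fold change of 0.39. The acetyltransferase HGSNAT of the same pathway, outside the 46, had 0.27 and passed the test.

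The iduronate sulfatase IDS had low counts, 215, 189, 164 and 210.4 under DMSO and 219.8, 242, 229.7 and 223 under DTHIB. Its groups were close but did not overlap, with a log2 fold change of 0.24 (limma: SE 0.089, adjusted p = 0.028). This call was lost under quantile normalization (adjusted p = 0.0894) and without DMSO replicate 2 (0.0575), DMSO replicate 3 (0.117) or DTHIB replicate 2 (0.0702). Other gene models on the same strand cover 17.4% of its exon length, and 1 of them, AC244197.3, rose from 15.5 ± 2.83 to 41.4 ± 9.11; its part in the IDS count was not tested. GUSB, the beta-glucuronidase that acts on several glycosaminoglycans, went the other way, with 4074, 4052, 4011 and 3767 under DMSO and 3497, 3291, 3464 and 3337 under DTHIB. All 4 DTHIB libraries were below the DMSO libraries, and the log2 fold change was -0.23 (limma: SE 0.033, adjusted p = 1.4e-05). GUSB has 12 annotated pseudogenes named after it, among which reads could have been split. In all, 7 members have at least 1 such pseudogene, among them CTSL with 6, ATP6V1G1 with 5 and ATP6V0E1 with 4.

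ARSB, the sulfatase of dermatan and chondroitin sulfate, held 553, 525, 518 and 574 normalized counts under DMSO and 495, 466, 513 and 513 under DTHIB. The groups nearly touched, and the log2 fold change of -0.13 passed by little (limma: SE 0.054, adjusted p = 0.0495). It did not pass in 12 of the 18 alternative fits, among them edgeR on recovered reads (adjusted p = 0.0988) and the fits without DMSO replicates 1 and 4 (0.108 and 0.148) or DTHIB replicates 1, 2 and 4 (0.078, 0.144 and 0.0506). The sulfatide-cleaving arylsulfatase ARSA rose without overlap, from 1279.5, 1256, 1311 and 1281 under DMSO to 1844, 2039, 1980.4 and 1998 under DTHIB. Its log2 fold change was 0.62 (limma: SE 0.037, adjusted p = 2.5e-10). The 4 sulfatases thus counted 3 higher and 1 lower, or 3 and 0 under TMM rescaling and 2 and 0 under quantile normalization.

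GAA, the acid alpha-glucosidase that degrades glycogen (chromosome 17, 80101556 to 80119879, plus strand), held 3248, 3195, 3338 and 3261 normalized counts under DMSO and 4481, 4732, 4755 and 4728 under DTHIB. The DTHIB values were all higher, with DTHIB replicate 1 the lowest of them, and the log2 fold change was 0.52 (limma: SE 0.030, adjusted p = 1.2e-10). HEXA, the alpha subunit of the hexosaminidase that clears GM2 ganglioside, rose from 470.2, 458, 427 and 455 to 658, 647, 590.2 and 563. Its groups did not overlap, and its log2 fold change was 0.44 (limma: SE 0.059, adjusted p = 5.2e-06). Opposite-strand genes cover 13.0% of the exon length of HEXA, among them HEXA-AS1, which averaged 17.7 ± 3.51 in DMSO and 27.8 ± 4.69 in DTHIB.

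GLA, the alpha-galactosidase that cleaves globotriaosylceramide, had the largest fall among the 46 members. The DMSO libraries held 1043, 1080.4, 1027 and 922 normalized counts and the DTHIB libraries 544, 451, 539 and 459. Each DTHIB value was well below the lowest DMSO value, and the log2 fold change was -1.03 (limma: SE 0.067, adjusted p = 5.6e-10). The gene is on the X chromosome (101397803 to 101408012, minus strand), and no exon of another gene overlaps its exons. The remaining glycosidases rose: the mannosidases MAN2B1 (log2 fold change 0.41) and MANBA (0.37), which trim N-glycans, and the beta-galactosidase GLB1 (0.29). Other gene models on the same strand cover 21.2% of the exon length of MAN2B1, 12.6% of that of NAGLU and 9.69% of that of MANBA. In all, 7 of 9 glycosidases rose and 2 fell, and these 9 calls were the same in all 18 alternative fits.

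Lipid-degrading members were split. PSAP, the precursor of the saposins that present sphingolipids to their hydrolases, held 22931, 23194, 22809 and 23168 normalized counts under DMSO and 29279, 28359.8, 28814 and 28543 under DTHIB. The groups were far apart relative to their spread, with a log2 fold change of 0.32 (limma: SE 0.025, adjusted p = 6.9e-09). The sphingomyelinase SMPD1 rose from 1406, 1489, 1432 and 1470.0 to 1743, 1671, 1683 and 1662, without overlap and by 0.22 on the log2 scale (limma, adjusted p = 2.9e-05). PPT1, the palmitoyl-protein thioesterase, fell from 5585, 5862, 5639 and 5776 to 5044, 4729, 4962 and 4826, also without overlap.

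The log2 fold change of PPT1 was -0.23 (limma: SE 0.030, adjusted p = 4.1e-06). CAP1, on the opposite strand, covers 23.4% of the exon length of PPT1 and had a log2 fold change of -0.25; without strand, reads of the shared stretch cannot be assigned to either gene. The acid ceramidase ASAH1 had 10616, 10902, 11469 and 11779 under DMSO and 10704, 10567, 9834 and 10292 under DTHIB, groups that overlap. Its log2 fold change was -0.11 (limma, adjusted p = 0.0106), a call lost under quantile normalization (adjusted p = 0.0922). LIPA, the acid lipase for cholesteryl esters, averaged 2122 ± 61.3 and 2132 ± 95.3 (limma, adjusted p = 0.89). It was called higher under quantile normalization (adjusted p = 0.0352) and after removal of a trend with gene length and GC content, the length and GC trend below (0.00234). The 5 genes counted 2 higher and 2 lower, or 3 and 1 under quantile normalization and 3 and 2 after that removal.

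The hydrolases other than proteases took 0.204% ± 0.00220 of all normalized counts in DMSO and 0.239% ± 0.00222 in DTHIB, with no overlap between the libraries. The total of normalized counts was somewhat lower in each DTHIB library than in each DMSO library, which raises shares in DTHIB slightly. Without PSAP, the most abundant gene of the group and not itself a hydrolase, the shares were 0.127% ± 0.00147 and 0.139% ± 0.00169. Per kilobase of exon, the level of PSAP was 7109 normalized counts in DMSO and 8876 in DTHIB. On that scale IDUA was at 73.8 and 229.9, still below GUSB at 996 and 851.

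**Figure D2:**
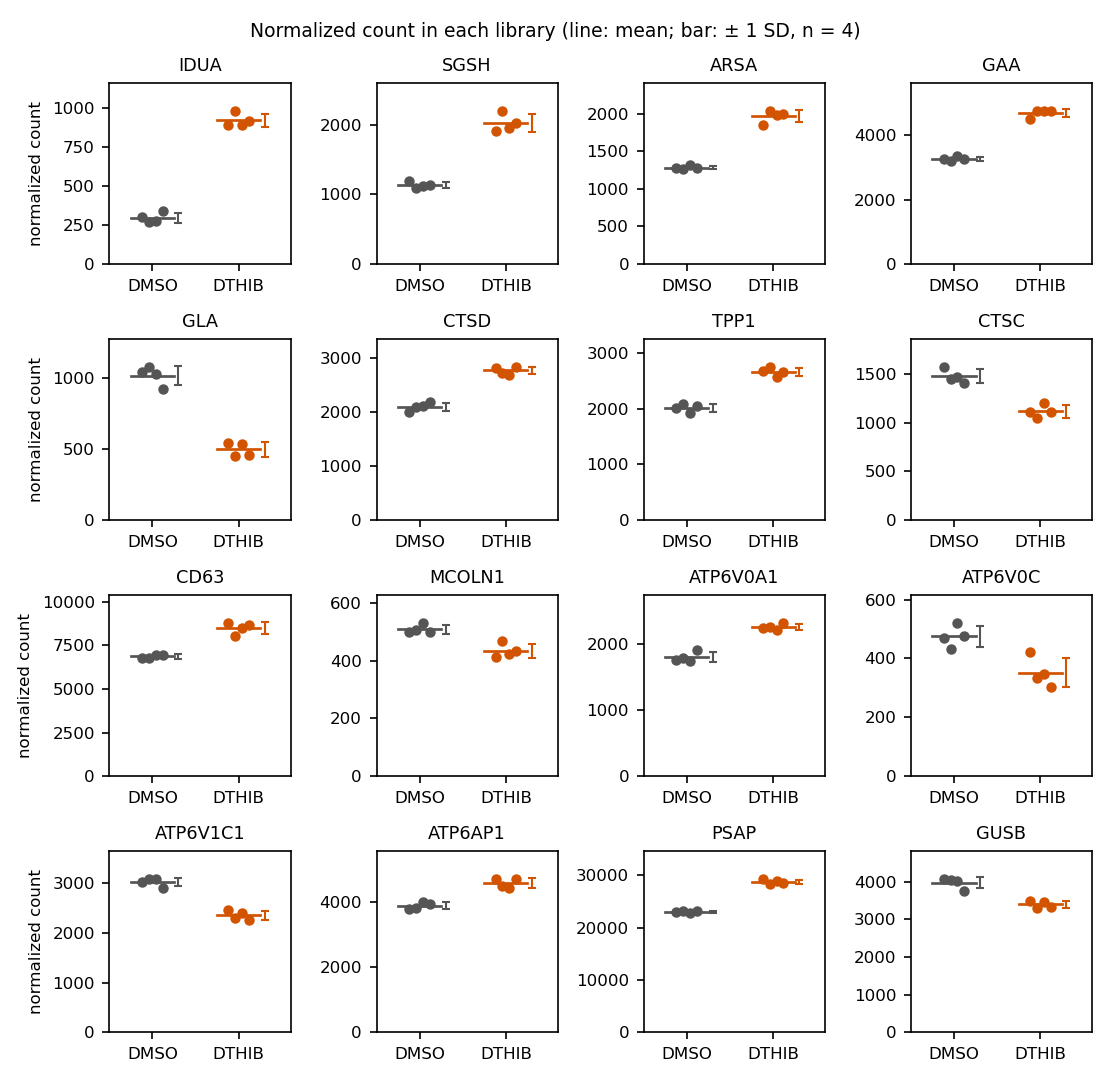
Normalized count (y axis, from 0) in each of the 4 DMSO and 4 DTHIB libraries for 16 members; points are libraries, lines group means and bars ± 1 SD. All 16 belong to the 34 members whose groups do not overlap, where 57.9% of all tested genes showed no overlap. ASAH1, CTSA, ATP6V0E1 and ATP6V1D, called with overlapping groups, are not shown. IDUA lies between 267 and 338 in DMSO and between 889.8 and 982 in DTHIB.

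Of the 8 cathepsins and other proteases, 4 rose, 3 fell and CTSL did not pass, with a median log2 fold change of 0.05. Under quantile normalization 5 rose and 2 fell. The aspartic protease CTSD held 2006, 2101, 2105 and 2184 normalized counts under DMSO and 2819, 2728, 2694 and 2839 under DTHIB. TPP1, which removes tripeptides from protein ends, had 2017, 2093, 1925 and 2053 against 2675, 2755, 2564 and 2654. Neither gene's groups overlapped, and the log2 fold changes were 0.40 (limma: SE 0.034, adjusted p = 2.0e-08) and 0.40 (limma: SE 0.035, adjusted p = 3.2e-08). Another gene model on the same strand covers 41.7% of the exon length of CTSD, and a further one 11.55% of that of TPP1. How reads in these stretches were counted is not stated.

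The cysteine protease CTSB had 4345, 4458, 4412 and 4377 under DMSO and 5070.0, 4503, 4747 and 4805 under DTHIB. The ranges nearly met, at DTHIB replicate 2, and the log2 fold change was 0.12 (limma: SE 0.034, adjusted p = 0.00507). CTSA, a carboxypeptidase that also stabilises GLB1, rose, with a log2 fold change of 0.11 (limma: SE 0.043, adjusted p = 0.0377), with groups that overlap. It did not pass in 7 of 18 alternative fits: with no filter on low counts (adjusted p = 0.0716), after removal of the length and GC trend (0.0762), and without DMSO replicates 1, 2 and 3 (0.0719, 0.0578 and 0.133) or DTHIB replicates 1 and 2 (0.0944 and 0.0722). Opposite-strand genes cover 28.5% of its exon length; NEURL2 and PLTP among them averaged under 15 normalized counts in either group.

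CTSC, the dipeptidyl peptidase that activates granule proteases of immune cells, had the largest fall of the 8. It held 1575, 1452, 1473 and 1406 normalized counts under DMSO and 1109.6, 1046, 1207 and 1108 under DTHIB. The groups were clearly separate, with a log2 fold change of -0.40 (limma: SE 0.047, adjusted p = 9.8e-07). The carboxypeptidase CTSZ fell from 4759, 4576, 4823 and 4580.4 to 4264, 3948, 4220.5 and 4097, without overlap and by 0.18 on the log2 scale (limma, adjusted p = 9.8e-05). CTSH, an aminopeptidase, had 3968, 3990.5, 3977 and 3961 under DMSO and 3901, 3616, 3814 and 3779 under DTHIB. Its DTHIB libraries were all lower but by little, a log2 fold change of -0.07 (limma, adjusted p = 0.0383).

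The CTSH call was lost in 11 of 18 alternative fits, with a value of 0.01 under quantile normalization. Among them are the fits without DMSO replicates 1, 2, 3 and 4 (adjusted p = 0.0709, 0.0725, 0.0726 and 0.061) and without DTHIB replicates 2 and 4 (0.122 and 0.0665). CTSL, an endopeptidase of the same family, averaged 2894 ± 55.8 and 2892 ± 74.5 normalized counts, a log2 fold change of 0.00 (limma, adjusted p = 0.977). Under quantile normalization it was higher by 0.08 (adjusted p = 0.024).

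Among 5 membrane proteins, CD63 and LAMP1 rose, MCOLN1 fell, and LAMP2 and CLN3 did not pass. The tetraspanin CD63 held 6757, 6761, 6969.6 and 6959 normalized counts under DMSO and 8785, 8023, 8511 and 8640.4 under DTHIB. LAMP1, an abundant glycoprotein of the lysosomal membrane, had 4759, 4793, 4889.5 and 4784 against 5338, 5296, 5413 and 5617. Neither gene's groups overlapped, and the log2 fold changes were 0.31 (limma: SE 0.031, adjusted p = 1.6e-07) and 0.17 (limma: SE 0.028, adjusted p = 4.6e-05).

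MCOLN1, the calcium channel mucolipin, held 499, 504, 531 and 498 normalized counts under DMSO and 412, 467, 422 and 434 under DTHIB. The groups did not overlap, and the log2 fold change was -0.23 (limma: SE 0.055, adjusted p = 0.00164). LAMP2, a relative of LAMP1, averaged 8334 ± 145 and 8516 ± 283 (limma, adjusted p = 0.372), and of the 18 alternatives passed only after removal of the length and GC trend, as higher (0.15, adjusted p = 5.9e-05). CLN3, whose function is less settled, was near the limit for testing, with 20.1, 25.8, 26.0 and 22.0 under DMSO and 20.8, 44.8, 36.0 and 32.9 under DTHIB. The groups overlap through DTHIB replicate 1, and the log2 fold change of 0.46 did not pass (limma: SE 0.22, adjusted p = 0.0841). CLN3 passed without DTHIB replicate 1 (0.66, adjusted p = 0.0103) and with edgeR (adjusted p = 0.0495). Exons of other gene models cover 25.2% of its exon length on the same strand and 5.75% on the opposite strand.

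The 15 V-ATPase members counted 4 higher and 7 lower, or 73.3% called, beside 64.6% of all tested genes, a share that was larger with a minimum mean of 50. Their median log2 fold change was -0.06, which turned to 0.01 under quantile normalization and 0.02 after removal of the length and GC trend. This split depended on the scaling: 6 were higher and 5 lower after that removal. None of the 15 changed by as much as 1.5-fold. Their summed share of all normalized counts was 0.166% ± 0.00267 in DMSO and 0.166% ± 0.00301 in DTHIB, with overlapping libraries. Because the total was somewhat lower in DTHIB, this even share goes with slightly lower summed counts of the 15 members there. The plot of members by role shows subunits of the same sector on both sides of 0.

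In the V0 sector, ATP6V0A1 and ATP6V0E1 rose, ATP6V0C and ATP6V0D1 fell and ATP6V0B did not pass. ATP6V0A1 is an isoform of subunit a, which lines the proton path. It held 1755, 1784, 1742 and 1908 normalized counts under DMSO and 2229.7, 2252, 2205 and 2313 under DTHIB, with no overlap (log2 fold change 0.32; limma: SE 0.036, adjusted p = 4.9e-07). The small subunit gene ATP6V0E1 had 2836, 2848, 2982 and 3061 against 3267, 3161, 3038 and 3141. Its groups overlap; the log2 fold change was 0.10 (limma, adjusted p = 0.013), a call lost without DMSO replicate 1 (adjusted p = 0.0509).

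ATP6V0C encodes the proteolipid of the rotating ring. It held 471, 432, 521 and 476 normalized counts under DMSO and 421, 334, 349 and 304 under DTHIB. The highest DTHIB value, in replicate 1, came close to the lowest DMSO value, and the log2 fold change was -0.44 (limma: SE 0.085, adjusted p = 2.4e-04). Its count is uncertain, because other gene models cover 72.1% of its exon length on the same strand and 4 pseudogenes are named after it. ATP6V0D1, which couples the ring to the central stalk, fell from 3268, 3196, 3454 and 3472 to 2840.3, 2733, 2733 and 2907, without overlap (log2 fold change -0.26; limma: SE 0.035, adjusted p = 6.5e-06). ATP6V0B, another ring subunit, averaged 5668 ± 129 and 5422 ± 124 (log2 fold change -0.06; limma, adjusted p = 0.0599). It was called lower without DMSO replicate 2 (adjusted p = 0.0454) or DTHIB replicate 1 (0.0399), while under quantile normalization its value was 0.01, not past the test.

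In the V1 sector 5 of 8 subunits fell, 1 rose and 2 did not pass, or 3 fell and 2 rose after removal of the length and GC trend. ATP6V1C1, whose protein joins V1 to V0 when the pump assembles, held 3027, 3086, 3082 and 2905 normalized counts under DMSO and 2454, 2301, 2401 and 2266 under DTHIB. The groups were far apart, and the log2 fold change was -0.36 (limma: SE 0.034, adjusted p = 8.3e-08). ATP6V1G1, a peripheral stalk subunit, rose without overlap from 2779, 2559, 2717 and 2676 to 3027, 2928, 2884 and 3093 (log2 fold change 0.15; limma: SE 0.034, adjusted p = 9.0e-04).

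The central rotor subunits ATP6V1D and ATP6V1F both fell by small amounts. ATP6V1D had 3097, 3024, 3512 and 3395 under DMSO and 3043, 2759.9, 2853 and 2823 under DTHIB, with overlap at DTHIB replicate 1. Its log2 fold change of -0.18 (limma, adjusted p = 0.00212) did not pass after removal of the length and GC trend (-0.05, adjusted p = 0.312). EIF2S1, which overlaps 6.33% of its exon length on the opposite strand, had a log2 fold change of -0.18. ATP6V1F had 3260.1, 3232, 3473 and 3269 against 3091, 2779, 2999 and 2890.4, without overlap (log2 fold change -0.17; limma, adjusted p = 6.0e-04). KCP covers 23.7% of its exon length on the opposite strand and rose, from 130.1 ± 13.0 to 189.9 ± 1.82.

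Both subunits of the catalytic head were called lower. ATP6V1B2 had a log2 fold change of -0.17 (limma, adjusted p = 1.3e-04). ATP6V1A had -0.10 (limma, adjusted p = 0.00781), but 0.01 under quantile normalization and 0.02 after removal of the length and GC trend. The stalk subunit ATP6V1E1 averaged 3816 ± 75.4 and 3773 ± 153 (limma, adjusted p = 0.666) and passed as higher after removal of that trend (0.10, adjusted p = 0.0104). The regulatory subunit ATP6V1H averaged 1709 ± 105 and 1692 ± 75.8 (limma, adjusted p = 0.806).

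Of the accessory proteins, ATP6AP1 rose from 3788, 3809, 4011 and 3927 to 4694, 4502, 4417 and 4708, with no overlap (log2 fold change 0.24; limma: SE 0.032, adjusted p = 4.4e-06). ATP6AP2, also known as the prorenin receptor, averaged 4102 ± 131 and 4315 ± 131 (log2 fold change 0.07; limma, adjusted p = 0.0568). It passed as higher in 7 of 18 alternative fits, among them edgeR (adjusted p = 0.0199), quantile normalization (2.0e-04), and the fits without DMSO replicate 4 (0.0223) or DTHIB replicate 4 (0.0428).

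Several subunits have paralogs, of which tissues use different ones. Exon length here joins the exons of all annotated transcripts of a gene, which may be longer than the RNA expressed. Ranks between paralogs depend on it. Per kilobase of that length, TCIRG1 (also called a3) stood at 240.3 ± 3.75 normalized counts in DMSO and 226 ± 15.4 in DTHIB. ATP6V0A1 stood at 164 ± 6.92 and 205 ± 4.21. Before division by length the order in DMSO was the reverse, with ATP6V0A1 at 1797 ± 75.8 and TCIRG1 at 1054 ± 16.4. As a description with no test, the per-kilobase share of ATP6V0A1 among the 4 isoforms of subunit a averaged 36.6% in DMSO (range 35.3 to 37.8) and 43.0% in DTHIB (42.0 to 44.9). TCIRG1 averaged 53.6% and 47.2%. On the same per-kilobase scale ATP6V0E1 held 60.9% ± 0.410 of subunit e in DMSO and 65.8% ± 0.977 in DTHIB. Before division by length ATP6V0E2 was the higher in DMSO, at 7828 ± 208 normalized counts against 2932 ± 109 for ATP6V0E1. Its paralog ATP6V0E2 fell by 0.20 on the log2 scale and was the only called gene among 5 tested isoforms outside the 46. Of the others, ATP6V0A2 passed as higher in 7 of 18 alternatives, among them TMM rescaling (adjusted p = 0.0341), quantile normalization (0.0192) and the fits without DMSO replicate 3 (0.0129) or DTHIB replicate 1 (0.03). TCIRG1 passed as lower after removal of the length and GC trend (0.00449) and without DTHIB replicate 4 (0.0373). Subunits B and C came almost wholly from ATP6V1B2 and ATP6V1C1, at 99.9% and 96.9% of their totals in DMSO. ATP6V1G2 and ATP6V1G3 were listed at 0 in every library, as was the sialidase NEU1.

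**Figure D3:**
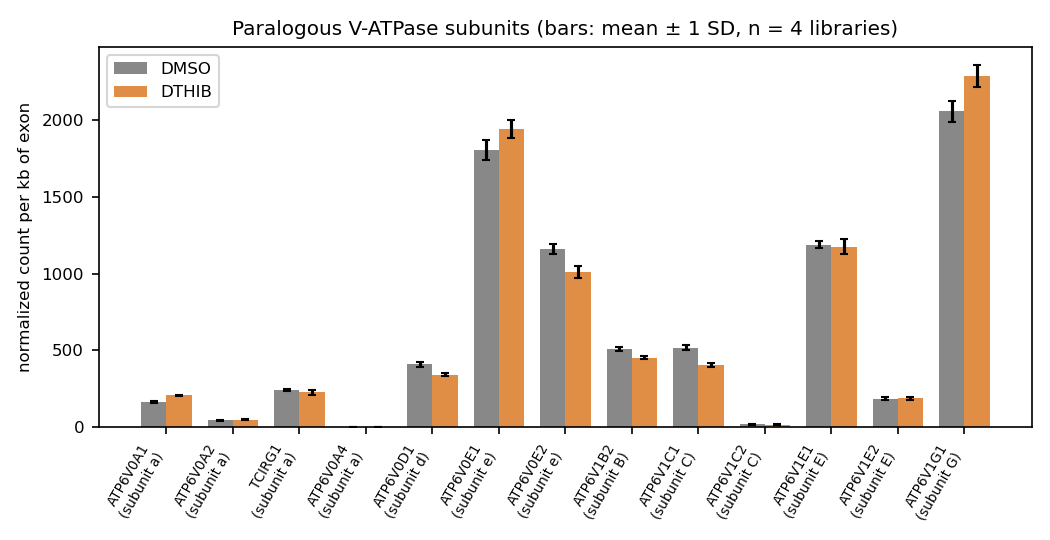
Normalized counts per kilobase of exon (y axis, from 0) of V-ATPase subunits that have paralogs, in DMSO (grey) and DTHIB (orange); bars are means of 4 libraries ± 1 SD, and paralogs at 1 or less per kilobase in both groups are left out. ATP6V0A1 is higher and TCIRG1 slightly lower in DTHIB, and the bars of ATP6V0E1 and ATP6V0E2 lie farther apart there than in DMSO. Before division by length the reverse holds: ATP6V0E2 and ATP6V0E1 averaged 7828 and 2932 normalized counts in DMSO, and came closer in DTHIB, at 6812 and 3152.

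Other lysosomal genes, in lists outside the 46, give the surroundings of these changes. The first list held 33 hydrolases and related proteins, among them HGSNAT and GM2A, which are not hydrolases. Of the 28 tested, 14 rose and 5 fell (median log2 fold change 0.11). That is 67.9% called, close to the 64.6% of all tested genes. The called share was 73.1% in the membrane and transport list below and 57.1% in that of TFEB and its relatives. It was 80% among V-ATPase assembly genes and 100% in the lists of mannose 6-phosphate sorting and cystatins. DNASE2, the acid DNase, rose from 1497 ± 50.4 to 2600.3 ± 84.6, and the collagen-degrading CTSK from 62.7 ± 8.25 to 99.0 ± 8.74. HYAL1, a hyaluronidase, fell from 191 ± 15.3 to 61.2 ± 9.39, and CTSV, the nearest relative of CTSL, from 678 ± 63.9 to 242 ± 30.1. GGH, which trims folate polyglutamates, fell from 1962 ± 69.7 to 807 ± 67.0.

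Of 26 tested membrane and transport proteins of 27, 12 rose and 7 fell, or 13 and 3 under quantile normalization. LAMP3, an inducible relative of LAMP1, averaged 9.16 ± 4.97 in DMSO and 81.6 ± 10.2 in DTHIB, a log2 fold change of 3.13 (limma: SE 0.27, adjusted p = 2.0e-08). LAPTM5 went from 2.18 ± 0.915 to 17.9 ± 5.69, few reads in either group. The amino acid transporter SLC36A1 fell by 0.32 on the log2 scale and the cholesterol exporter NPC1 by 0.31.

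TFEB, a master regulator of lysosomal genes, fell from 476 ± 33.9 to 309 ± 29.5 normalized counts (log2 fold change -0.62; limma: SE 0.074, adjusted p = 1.2e-06). Its relative TFE3 averaged 2139 ± 89.0 and 2143 ± 51.2 (limma, adjusted p = 0.946) and was called higher under quantile normalization (0.09, adjusted p = 0.0332). MITF averaged 366 ± 19.0 and 333 ± 33.0 (limma, adjusted p = 0.113), and passed as lower without DTHIB replicate 3 (-0.19, adjusted p = 0.0304). Of 7 tested genes in that list, FLCN (0.30) and ZKSCAN3 (0.26) rose and FNIP2 (-0.58) and TFEB fell; under quantile normalization 4 rose and 2 fell.

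All 11 tested genes of mannose 6-phosphate tagging and sorting passed the test, 6 higher and 5 lower, or 6 and 3 under quantile normalization. The receptor IGF2R rose from 4458 ± 162 to 6035 ± 380.4 and the tagging subunit GNPTG from 741 ± 45.6 to 968 ± 43.6. CLN6, an endoplasmic reticulum protein needed for enzyme export, fell from 1178 ± 20.7 to 722 ± 38.7, and the adaptor GGA2 from 2891 ± 31.8 to 2251 ± 35.1. Among 10 V-ATPase assembly genes 5 rose and 3 fell, with log2 fold changes of 0.60 for DMXL1, 0.41 for NCOA7, -0.34 for OXR1 and -0.25 for TMEM199. Of 8 cystatins, inhibitors of cysteine cathepsins, 3 could be tested and rose: CST3 from 2044 ± 120.3 to 2830.5 ± 108, CSTA from 158 ± 21.7 to 235 ± 28.1, and CSTB (log2 fold change 0.12; limma, adjusted p = 0.0292). The CSTB call was lost without DMSO replicates 1 and 2 (adjusted p = 0.11 and 0.0765) or DTHIB replicates 1 and 4 (0.104 and 0.0977).

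**Figure D4:**
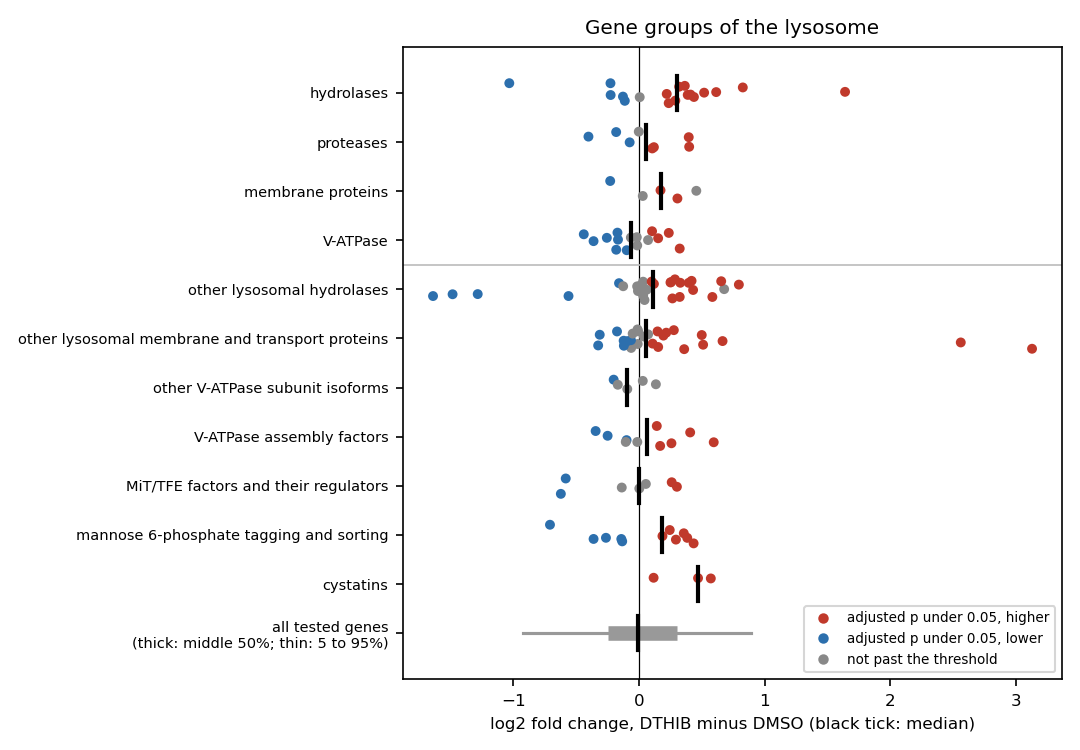
Log2 fold change, DTHIB minus DMSO (x axis), of genes in each group; the 4 groups above the grey line are the 46 members, those below are further lysosomal lists, black ticks are medians, and the bottom row gives the spread of all tested genes. The hydrolase median of 0.31 lies to the right of that of all tested genes, -0.01, and the V-ATPase median of -0.06 to its left; the V-ATPase median was 0.01 under quantile normalization and 0.02 after removal of the length and GC trend.

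The libraries held 27229291 to 30926053 counted reads. All 8 markers of luminal prostate cells were present, with a summed level of 164167 to 166638 normalized counts in DMSO and 200623 to 205903 in DTHIB. They did not move together: KLK3, KLK2, FOLH1 and TMPRSS2 rose, and HOXB13, KRT8, KRT18 and EPCAM fell. Macrophages are rich in lysosomes. Of 8 macrophage and blood markers AIF1 and FCGR3A were listed at 0, and PTPRC averaged 1.20 in DMSO and 0.749 in DTHIB. CD68, CSF1R and LYZ could be tested, with means of 13.4, 10.2 and 10.2 over all libraries, and 1 of these 3 was called lower. In the authors' deposited comparison LYZ had a log2 fold change of -1.13. The 8 markers summed to 34.7 to 45.0 in DMSO and 20.9 to 41.9 in DTHIB. A listed 0 need not mean that no RNA was present, since NEU1, a lysosomal enzyme that cells generally express, was listed at 0 too. Fibroblast markers summed to 974 to 1063 and 1221 to 1453, almost all of it COL1A1, with DCN and LUM at 0 in DMSO and means of 0.782 and 0.499 in DTHIB. Endothelial markers summed to 132 to 170.3 and 145 to 193; the part of these lists in the results was not tested.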

How the data were processed

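The submitters' processing notes list DESeq2 2.11.40.2, featureCounts 1.6.3, HISAT2 2.1.0, StringTie 1.3.4 and Trimmomatic 0.36.5, with build GRCh38; their settings, the annotation release and the use of strand were not given in the sources used. The signal that the authors deposited is a DESeq2-normalized count per gene and library, meaning reads divided by a size factor. The authors also deposited log2 fold changes with standard errors, Wald scores, p-values and adjusted p-values; that table of the authors' has 20 members higher and 14 lower at an adjusted p under 0.05. Every value was a whole multiple of its library's step (100% within 0.01), so whole reads were recovered.

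Log2(normalized count + 1) was fitted with limma 3.58.1 in R 4.3.3 (eBayes with trend, two-sided, no covariates) over the 17194 genes with a mean of at least 10; this scale understates changes of low genes. Identifiers were matched to symbols and to GENCODE release 29 positions and exon lengths. The fit was repeated with a pseudocount of 0.5 or 5, without a filter, with a minimum mean of 50, with TMM rescaling, quantile normalization, edgeR 4.0.16 (on recovered reads the count test called 5560 genes higher and 5570 lower), DESeq2 1.42.0, a replicate block, each library left out and, added after seeing the data, removal of a length and GC trend (splines, 4 degrees of freedom). The limma fit was also tried on simulated counts, with 50 genes changed at each fold. It recovered 58% of the 1.25-fold changes, 66% of the 1.5-fold, 80% of the 2-fold and 98% of the 4-fold. Of its calls, 5.625% were false. Far fewer genes changed there than were called in these libraries, so the rates need not hold for them.

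Members and lists were chosen with earlier results of these data known. Values per library are given for up to 3 called members with the largest rise and 3 with the largest fall in each role group, and up to 2 each way are named per further list; TFEB, TFE3 and MITF are always named. HGSNAT, GGH, NEU1, TCIRG1, ATP6V0A2, ATP6V1G2, ATP6V1G3 and the genes overlapping members were chosen after their values were seen. Within groups, libraries differed by a chi-square of 2.39 to 5.21 per gene, so none agreed within sampling noise.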

Additional observations from a re-analysis of the deposited data

Results flagged for a closer look

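In 92 sets of 4 libraries (46 members in 2 groups), 2 had a library far from its 3 companions by Dixon's ratio of gap to range, above its 95% critical value; chance alone gives about 1 in 20. GAA in DTHIB had 4481 normalized counts in replicate 1 against 4728 to 4755 in the others (ratio 0.901), still above every DMSO library. ATP6V1F in DMSO had 3473 in replicate 3 against 3232 to 3269 (ratio 0.847), and its fall was called without that library as well.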

How the results depend on the processing

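Of the 38 called members, 30 kept their call in all 18 alternative fits (19 higher and 11 lower), and 8 lost it in at least 1. Without 1 library, members higher numbered 20 to 23 and members lower 14 to 16. Quantile normalization left 3 hydrolases other than proteases lower in place of 5. Among genes that passed either in the reported fit or under the alternative, directions turned under that scaling for CTSH (0.012), CTSL (0.076), ATP6V1A (0.0065) and NAAA (0.074), and after removal of the length and GC trend for ATP6V1A (0.023), ATP6V1E1 (0.10), OSTM1 (0.12), CD164 (0.022) and VMA21 (0.033); the cause was not tested. Genes near 0 that passed in neither also changed sign, such as ATP6V0B under quantile normalization (0.013). The labels do not say that replicate numbers pair libraries, and same-numbered libraries did not deviate together (correlations -0.072 to 0.014). With the replicate number as a block, 22 members were higher and 15 lower, ARSB being lost. Depth limits CLN3, with under 50 normalized counts in each library.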
